A study of Mus musculus with 4 samples.

Results

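The amino acid transporters of the solute carrier families Slc1, Slc3, Slc6, Slc7, Slc36, Slc38 and Slc43 were described in TKPT cells, a mouse proximal tubule epithelial line that the study also calls TKPTS. Members were chosen by gene symbol alone, as every gene whose symbol begins with one of these family names and a member number, which gave 64 of the 22063 genes listed. All cells were of wild-type genotype and were kept for 24 h in 1% oxygen and then for 12 h in normal oxygen, so no library of normoxic cells entered the comparison. Of the 4 libraries, 2 came from cells given a control siRNA (Scrambled, replicates 2 and 3) and 2 from cells transfected with an siRNA against *Itgb6* (Itgb6-siRNA, replicates 1 and 3). *Itgb6* encodes the β6 subunit of integrin αvβ6, and the comparison asks which transcripts differ when it is targeted in these cells. Nothing in the labels says that the replicates were separate cultures, so p-values measure only the spread between these libraries, which may be technical.

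In the kidney, proximal tubule cells take back nearly all filtered amino acids. Sodium-coupled carriers and an exchanger in the apical membrane bring them in from the filtrate, and heterodimeric exchangers and uniporters in the basolateral membrane pass them to the blood. Several light chains of family Slc7 reach the cell surface only when bound to a heavy chain, *Slc3a1* on the apical side or *Slc3a2* on the basolateral side. Other carriers of these families serve every growing cell by taking up glutamine, leucine, cystine or arginine, and several of them are known targets of ATF4, the transcription factor of the amino acid response.

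Each library held between 15435074 and 17220281 estimated counts, deposited without normalization together with FPKM values (fragments scaled to transcript length and library size). *Itgb6* was at 17.5 and 16.4 CPM (counts scaled to the library total) in Scrambled and at 18.03 and 15.8 CPM in Itgb6-siRNA, with a log2 fold change of -0.01 ± 0.13 (SE; adjusted p = 0.991, edgeR quasi-likelihood test, Benjamini-Hochberg). The targeted transcript was thus not lower in the libraries labelled Itgb6-siRNA, and the groups are named below only as their labels name them. The study reports that siRNA efficiency was checked by qPCR and western blot, with less αvβ6 protein in hypoxic cells given the *Itgb6* siRNA. It does not say whether those measures came from the cultures sequenced here. Of 13 markers of the proximal tubule, 5 passed the filter on low counts and 6 were at 0 in every library, among them *Slc34a1*, *Slc5a2* and *Slc22a6*, while *Hnf4a* had 1 count in each of 2 libraries. The epithelial markers all passed the filter, at a summed 1531 and 1539 FPKM in Scrambled and 1441 and 1428 FPKM in Itgb6-siRNA, with *Krt8* lower by the adjusted p. The marker sums of the proximal tubule were 11.4 and 13.2 FPKM against 17.4 and 17.5 FPKM, where *Aqp1* rose by 0.59 on the log2 scale (adjusted p = 0.000617, edgeR). Whether these differences have a part in those of the transporters was not tested.

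Of the 64 members, 31 passed the filter, which was 48.4% of the members beside 53.2% of all genes listed. A further 16 had counts in some library but too few for a test, with a total of at most 28 counts over the 4 libraries. The remaining 17 had 0 counts in every library, and a count of 0 allows a level of up to between 0.174 and 0.194 CPM by library, at 3 counts of the total and for counting error only. By family, 7 of 11 members of Slc38, 9 of 16 of Slc7, 8 of 21 of Slc6, 3 of 7 of Slc1, 2 of 4 of Slc36, 1 of 3 of Slc43 and 1 of 2 of Slc3 were kept. The members at 0 were *Slc1a6*, *Slc1a7*, *Slc6a2*, *Slc6a4*, *Slc6a7*, *Slc6a16*, *Slc7a9*, *Slc7a10*, *Slc7a12*, *Slc7a13*, *Slc7a15*, *Slc36a2*, *Slc36a3*, *Slc38a5*, *Slc38a8*, *Slc38a11* and *Slc43a1*. Those with a few counts included *Slc1a2*, *Slc1a3*, *Slc3a1*, *Slc6a3*, *Slc6a5*, *Slc6a11*, *Slc6a12*, *Slc6a15*, *Slc6a18*, *Slc6a20b*, *Slc6a21*, *Slc7a2*, *Slc7a14*, *Slc38a4* and *Slc43a3*.

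**Figure D1:**
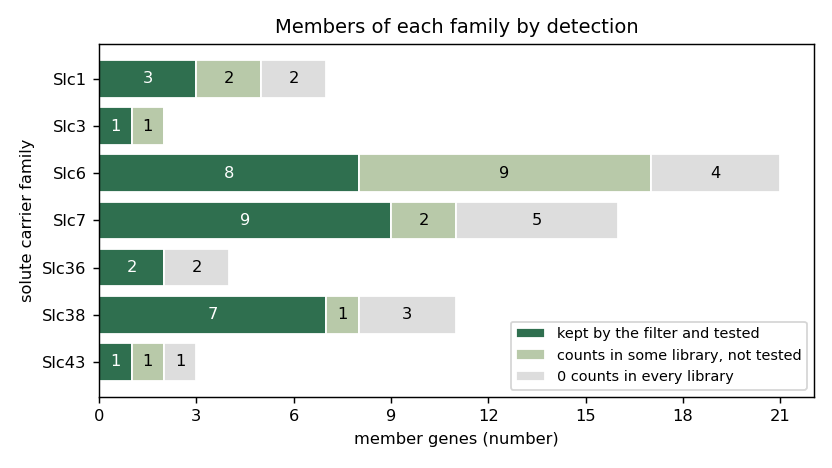
Number of member genes in each solute carrier family (x axis), divided into those kept by the filter and tested, those with counts in some library but not tested, and those with 0 counts in every library. Slc38 and Slc7 kept 7 of 11 and 9 of 16 of their members, while Slc6 kept 8 of 21.

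The apical reabsorption system of the proximal tubule was mostly at or near 0 in these libraries. Of its 9 genes, 3 had 0 counts in every library, namely *Slc7a9*, the light chain of the apical exchanger of cystine and basic amino acids, *Slc7a13*, an aspartate and glutamate exchanger, and *Slc36a2*, a proton-coupled carrier of proline and glycine. *Slc3a1*, the heavy chain of that exchanger, had 1.11 counts in Itgb6-siRNA replicate 3 and 0 in the other libraries. *Slc6a18*, a neutral amino acid carrier, had 6 and 0 counts in Scrambled and 2 and 4 counts in Itgb6-siRNA. *Slc6a20b*, one of the mouse copies of the proline carrier, had 1.4 counts in Itgb6-siRNA replicate 3 and none elsewhere.

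The other 3 apical genes passed the filter. *Slc6a19*, the main apical carrier of neutral amino acids, had 39 and 27 counts in Scrambled and 34 in each Itgb6-siRNA library, or 0.398 to 0.611 FPKM. *Slc6a20a*, the other copy of the proline carrier, had 26 and 33 counts in Scrambled and 29 and 33.98 counts in Itgb6-siRNA, and 31.9% of its 31-base words also lie in transcripts of other genes, its copy among them. *Slc1a1*, the carrier of glutamate and aspartate, was the only apical gene above 1 FPKM, at 3.30 and 3.68 FPKM in Scrambled and 4.42 and 4.67 FPKM in Itgb6-siRNA. *Cltrn*, whose protein is a partner of *Slc6a19* and *Slc6a18* at the apical membrane, was at 0 in all 4 libraries.

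The basolateral genes were all detected, but only the heavy chain *Slc3a2* was abundant. *Slc3a2* was at 159 and 163 FPKM in Scrambled and at 163 and 161 FPKM in Itgb6-siRNA. *Slc38a3*, a glutamine carrier, was at 1.13 to 1.73 FPKM, and *Slc43a2*, a uniporter of large neutral amino acids, at 0.756 to 1.45 FPKM. The light chains of this membrane were near the filter, with 10 to 12 counts for *Slc7a7*, the exporter of basic amino acids, and 9 to 22 counts for *Slc7a8*, an exchanger of neutral amino acids. None of the 5 basolateral genes passed either test below, and for *Slc7a7* the 95% interval of the log2 fold change ran from -1.24 to 1.25, so even a 2-fold difference was not detectable at this depth.

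Per length, a mean of at least 1 FPKM was reached by 22 members, 11 of them at 10 FPKM or more. Those with the highest mean were, in order, *Slc38a6*, *Slc3a2*, *Slc38a2*, *Slc38a1*, *Slc6a9*, *Slc7a1*, *Slc7a6os*, *Slc7a5*, *Slc38a10* and *Slc7a6*. *Slc3a2*, at a mean of 161.5 FPKM, and *Slc38a2*, the sodium-coupled carrier of small neutral amino acids, at 58.0 FPKM, stood apart from each other and from the rest in every library. *Slc38a1*, a related glutamine carrier, followed at 24.5 and 24.0 FPKM in Scrambled and 22.3 and 22.9 FPKM in Itgb6-siRNA.

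From *Slc6a9* to *Slc1a1* most neighbours in the order overlapped, apart from *Slc38a10* and *Slc7a6*, and *Slc1a5* and *Slc7a11*. *Slc6a9*, a glycine carrier, ranged from 18.9 to 20.4 FPKM, *Slc7a1*, the carrier of arginine and lysine, from 17.5 to 22.2 FPKM, and *Slc7a5*, the light chain for leucine and other large neutral amino acids, from 15.4 to 20.3 FPKM. *Slc7a6os*, at 15.7 to 20.6 FPKM, meets the rule by its symbol, but it is named for the strand opposite *Slc7a6* and is not a transporter. *Slc38a10* ranged from 12.7 to 16.8 FPKM and *Slc7a6*, a light chain that exchanges basic for neutral amino acids, from 7.52 to 12.4 FPKM. With lower means came *Slc6a6*, *Slc6a8*, *Slc1a4*, *Slc1a5*, *Slc7a11* and *Slc1a1*, whose library values lay between 3.30 and 10.9 FPKM.

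The level of *Slc38a6*, a carrier of glutamine and glutamate, is uncertain. It was listed at 289.6 and 292.4 FPKM in Scrambled and at 310.2 and 312.4 FPKM in Itgb6-siRNA, which was 42.1% to 43.8% of the summed FPKM of all members. Of the distinct 31-base words of its transcripts in GENCODE vM21, 40.7% also occur in transcripts of other genes, and *Noct*, a circadian gene on another chromosome, shares the largest number. Of its protein-coding transcripts, one of 3032 bases shares 5.1% of its words and one of 3927 bases shares 78.0%. Its estimated count was not whole in any of the 4 libraries, and how reads that match several genes were divided is not given in the sources used here. *Noct* was at 3821 and 3857 CPM in Scrambled and 4133 and 4293 CPM in Itgb6-siRNA. Its log2 fold change was 0.13 (adjusted p = 0.0484, edgeR), beside 0.11 (adjusted p = 0.148, edgeR) for *Slc38a6*. Which of the sharing genes the reads of *Slc38a6* came from was not tested.

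**Figure D2:**
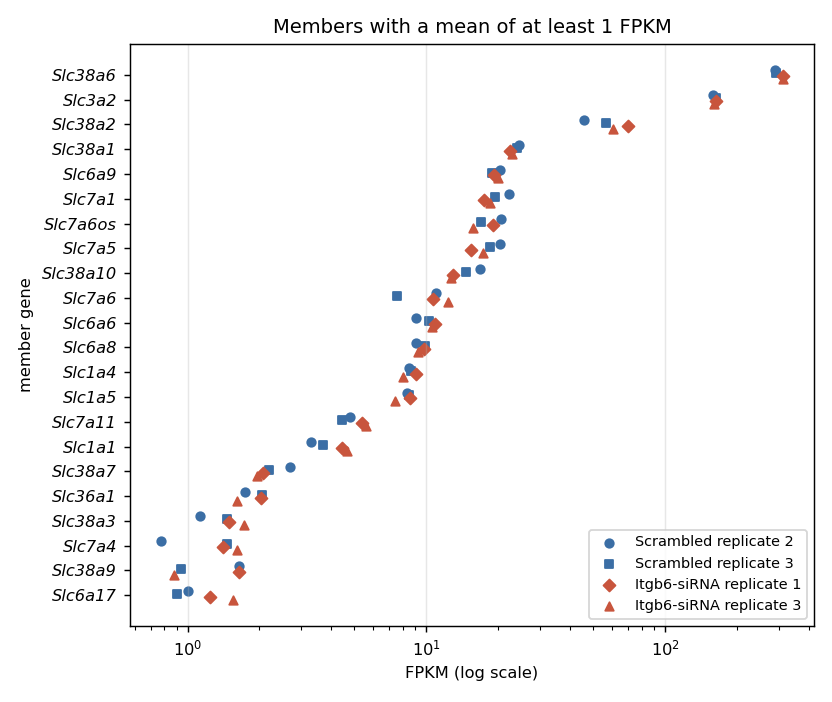
FPKM of the 22 members with a mean of at least 1 FPKM (x axis, log scale), with a point for each of the 4 libraries. *Slc38a6* and *Slc3a2* lie above 100 FPKM and *Slc38a2* between 45.6 and 69.8 FPKM, and many of the other members overlap with their neighbours in the order.

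The heavy chain *Slc3a2* outweighed the light chains known to bind it. Summed over *Slc7a5*, *Slc7a6*, *Slc7a7*, *Slc7a8*, *Slc7a10* and *Slc7a11*, the light chains came to 36.9 and 31.2 FPKM in Scrambled and 32.2 and 35.7 FPKM in Itgb6-siRNA. The ratio of the heavy chain to this sum was 4.32 and 5.24 in Scrambled and 5.05 and 4.51 in Itgb6-siRNA, and the groups overlapped. *Slc7a5* made up 55.0% and 59.2% of the light chain sum in Scrambled and 47.7% and 48.3% in Itgb6-siRNA. FPKM values follow the authors' estimate of transcript length as well as the count, and for *Slc7a6* the length that count and FPKM imply differed 1.32-fold between libraries, so these shares are descriptions and no test was made on them.

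Between the groups, 5 of the 31 tested members differed by one rule or both. At the study's thresholds (p under 0.05 before adjustment, with a difference of more than 1.2-fold), 4 of the 31 tested members were higher, *Slc38a2*, *Slc6a6*, *Slc7a11* and *Slc1a1*, and 1 was lower, *Slc38a10*. That is 12.9% of the tested members higher, beside 4.37% of all 11727 genes tested, and 3.23% lower, beside 5.20% of all genes. At an adjusted p under 0.05, *Slc38a2* and *Slc6a6* rose and *Slc38a10* fell, or 6.45% of the tested members higher beside 2.11% of all genes and 3.23% lower beside 2.52%. The median log2 fold change of the tested members was 0.01, with 18 above 0 and 13 below, and that of all genes tested was 0.0002. Of the 26 members that passed neither rule, 14 had a 95% interval that lay within a 1.5-fold difference in either direction. For the others the interval reached past 1.5-fold, so a larger difference was not excluded at this depth and spread. The CPM of the groups also did not overlap for some uncalled members, such as *Slc7a1* and *Slc6a8*. The share over all genes was not counted, so a lack of overlap adds nothing to a call. In bulk RNA, fewer cells that express a gene and less of its RNA per cell cannot be told apart.

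**Figure D3:**
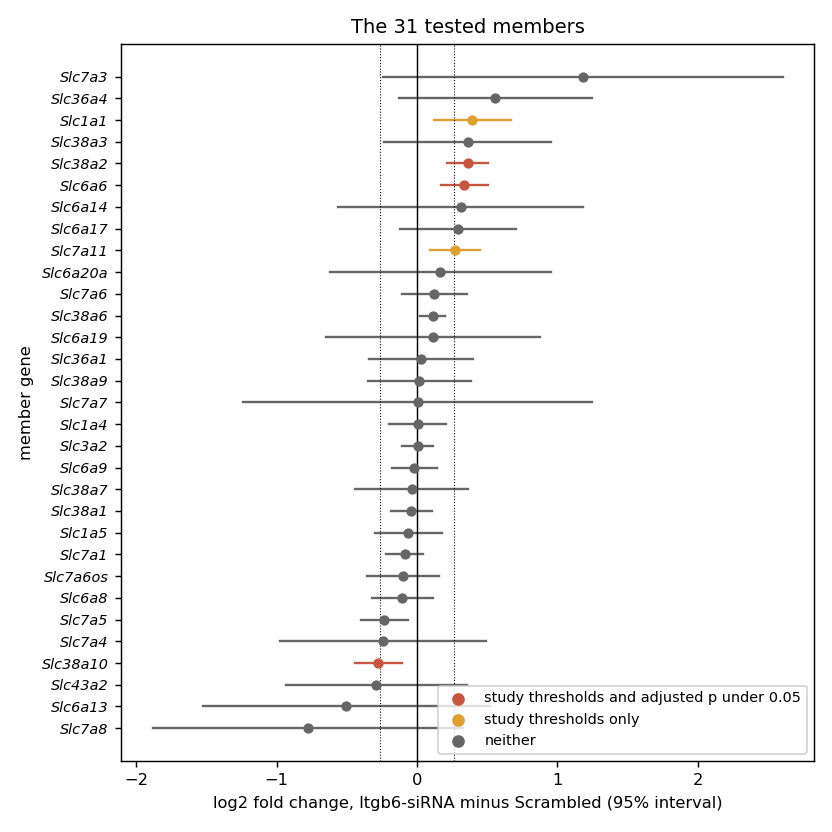
Log2 fold change of Itgb6-siRNA against Scrambled with its 95% interval (x axis) for the 31 tested members, ordered by fold change, with dotted lines at a fold change of 1.2. *Slc38a2*, *Slc6a6* and *Slc38a10* passed both rules, *Slc7a11* and *Slc1a1* only the study's thresholds, and the widest interval, that of *Slc7a3*, ran from -0.25 to 2.61.

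*Slc38a2* (ENSMUSG00000022462; chromosome 15, 96687392 to 96699730 on the minus strand of GRCm38), whose protein takes up alanine, glutamine and other small neutral amino acids with sodium, was at 211 and 263 CPM in Scrambled and at 325 and 284 CPM in Itgb6-siRNA. Both Itgb6-siRNA libraries lay above both Scrambled libraries, and Scrambled replicate 2 was the lowest. The means were 237 ± 36.8 CPM and 304 ± 28.4 CPM (SD, n = 2 each), a log2 fold change of 0.36 ± 0.07 (SE; adjusted p = 0.0017, edgeR). Without Scrambled replicate 2 the log2 fold change was 0.21 (adjusted p = 0.417), and without Scrambled replicate 3 it was 0.53. DESeq2 gave 0.36 with an adjusted p of 0.282, and the study's fold threshold was missed without Scrambled replicate 2 and, at 0.26, without Itgb6-siRNA replicate 1.

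*Slc6a6* (ENSMUSG00000030096; chromosome 6, 91684053 to 91759066 on the plus strand) encodes the sodium- and chloride-coupled carrier of taurine, an osmolyte of kidney cells. It was at 48.1 and 54.8 CPM in Scrambled and at 67.3 and 62.9 CPM in Itgb6-siRNA, so the groups did not overlap. Its log2 fold change was 0.34 ± 0.08 (SE; adjusted p = 0.014, edgeR). In FPKM the difference was smaller, with 9.05 and 10.3 FPKM against 10.9 and 10.6 FPKM. The call at the adjusted p was lost without Scrambled replicate 2 (log2 fold change 0.25, adjusted p = 0.456) and without Itgb6-siRNA replicate 1 (0.29, adjusted p = 0.0545), and it held with DESeq2. The study's thresholds were missed without Scrambled replicate 2 alone.

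*Slc7a11* (ENSMUSG00000027737; chromosome 3, 49892526 to 50443614 on the minus strand) is the light chain of the exchanger that imports cystine for glutathione synthesis and releases glutamate. It was at 43.8 and 40.6 CPM in Scrambled and at 49.7 and 52.3 CPM in Itgb6-siRNA. The groups did not overlap, and the log2 fold change was 0.27 ± 0.09 (SE), past the study's thresholds but not the adjusted one (adjusted p = 0.0659, edgeR). At 1.21-fold it lay just above the fold threshold. That call was lost in 4 of 10 alternatives, with library size only (log2 fold change 0.26), without Scrambled replicate 3 (0.22), without Itgb6-siRNA replicate 3 (0.24) and with the trends of GC content and transcript length removed (0.17, adjusted p = 0.37).

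*Slc1a1* (ENSMUSG00000024935; chromosome 19, 28835049 to 28913960 on the plus strand) was at 12.4 and 14.0 CPM in Scrambled and at 16.7 and 17.98 CPM in Itgb6-siRNA. The groups did not overlap, and its log2 fold change of 0.39 ± 0.14 (SE) passed the study's thresholds but not the adjusted one (adjusted p = 0.0891, edgeR). The call at the study's thresholds was lost without Scrambled replicate 2 (log2 fold change 0.31) and held in the other 9 alternatives. Its exons overlap those of *4430402I18Rik* on the other strand, with which it shares most of the 31.5% of its 31-base words that occur in other genes. Since the libraries carried no strand information, reads from the shared stretches cannot be assigned to one gene. The rest of its words occur in no other gene.

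*Slc38a10* (ENSMUSG00000061306; chromosome 11, 120103960 to 120151346 on the minus strand), a less studied carrier of the same family as *Slc38a2*, was the only member that fell. It was at 69.7 and 61.4 CPM in Scrambled and at 54.3 and 53.9 CPM in Itgb6-siRNA. Both Itgb6-siRNA libraries were below both Scrambled libraries, and the log2 fold change was -0.28 ± 0.08 (SE; adjusted p = 0.0464, edgeR). The call at the adjusted p was lost with DESeq2 (log2 fold change -0.27), with RLE factors (-0.27) and when any 1 of the 4 libraries was left out (-0.36 to -0.18). The call at the study's thresholds held in 8 of 10 alternatives and was lost without Scrambled replicate 2 (-0.18) and with the trends of GC content and length removed (-0.15, adjusted p = 0.386).

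*Slc7a5* lay close to the lower threshold. It was at 70.9 and 64.7 CPM in Scrambled and at 53.9 and 61.4 CPM in Itgb6-siRNA, and its log2 fold change of -0.23 ± 0.08 (SE; adjusted p = 0.101, edgeR) was short of a fold change of 1.2. Without Itgb6-siRNA replicate 3 it was -0.33 (adjusted p = 0.0354), and with the trends of GC content and length removed it was -0.13. Over all genes tested, the log2 fold change fell with GC content (Spearman's rho -0.364, taken over genes, which are no independent replicates). *Slc38a10* at 57.6% GC and *Slc7a5* at 56.3% stand at the high end of the members, and *Slc7a11* at 40.7% near the low end, beside a median of 49.8% for all genes tested. At the same high end, log2 fold changes were -0.02 for *Slc6a9* (57.0%), -0.10 for *Slc6a8* (56.8%), -0.06 for *Slc1a5* (56.7%) and 0.29 for *Slc6a17* (56.1%). With the trends of GC content and length removed, they were 0.10, 0.01, 0.03 and 0.39 in the same order. Beyond these values, whether GC content has a part in these differences was not tested.

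**Figure D4:**
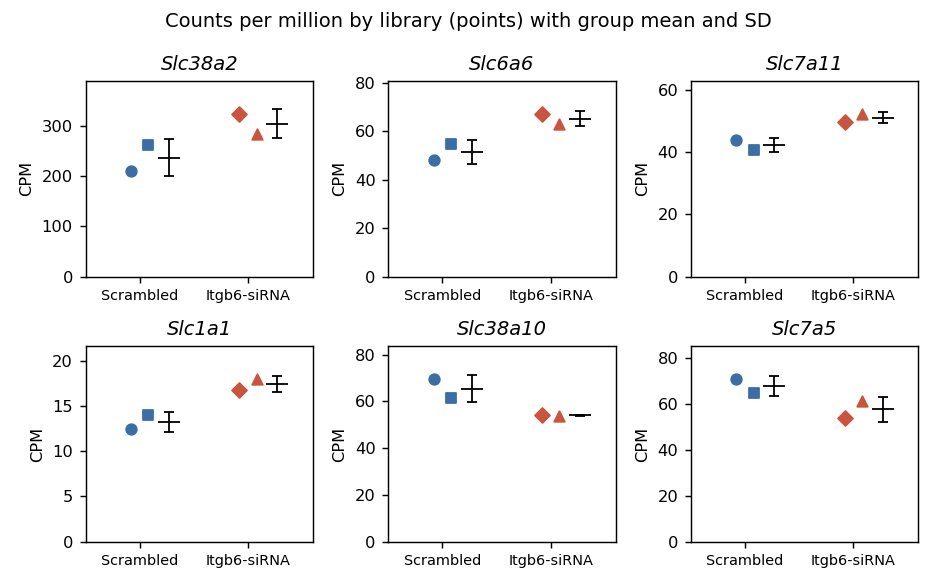
CPM of 6 members in each library (y axes start at 0), with a point for each library and the group mean with its SD (n = 2) beside it. The 6 were picked for their differences, and the groups do not overlap for any of them. Uncalled members such as *Slc7a1* also lack overlap, so this adds nothing to a call. For *Slc38a2* the Scrambled libraries are at 211 and 263 CPM and the Itgb6-siRNA libraries at 325 and 284 CPM.

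The promoters of the members that passed a rule are shown because several of these genes are known targets of ATF4 or of the oxidative stress factor NRF2, whose elements can be sought in them. RefSeq (GRCm38.p6) gave an upstream sequence for 46 members, as 67 promoters, and for 4 of the 5 that passed, with none for *Slc6a6*. The 250 bases before the start were searched on both strands for 3 patterns of letters. These were the C/EBP-ATF response element (TGATGNAA), a loose form of the antioxidant response element (TGANNNNGC) and the core of the hypoxia response element (ACGTG). Here N is any base, and the loose form also takes in sequences that are no antioxidant element. The first is held by 3.45% of all 32851 promoters of this length and by 4 of the 67 of the members, the second by 35.2% and by 34 of the 67, and the third by 16.6% and by 17 of the 67. *Slc7a11* (chr3:50443614-50443863, minus strand) holds the C/EBP-ATF element on both strands, in capitals, from -66 to -59 and from -47 to -40 before the start. It also has 2 matches of the loose antioxidant form, not marked. One lies from -97 to -89, and the other, from -45 to -37, overlaps the second C/EBP-ATF element. *Slc38a2* (chr15:96699729-96699978, minus strand) has a match of the loose antioxidant form from -27 to -19, in capitals. *Slc38a10* (chr11:120151352-120151601, minus strand) has a hypoxia core on the other strand from -149 to -145, in capitals. In the printed orientation, 5′ to 3′ toward the start, they read:
Slc7a11: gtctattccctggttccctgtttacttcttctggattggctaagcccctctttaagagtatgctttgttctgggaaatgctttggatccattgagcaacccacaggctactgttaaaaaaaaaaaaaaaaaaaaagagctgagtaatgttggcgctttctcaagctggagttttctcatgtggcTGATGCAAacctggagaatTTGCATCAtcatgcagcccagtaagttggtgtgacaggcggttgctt
Slc38a2: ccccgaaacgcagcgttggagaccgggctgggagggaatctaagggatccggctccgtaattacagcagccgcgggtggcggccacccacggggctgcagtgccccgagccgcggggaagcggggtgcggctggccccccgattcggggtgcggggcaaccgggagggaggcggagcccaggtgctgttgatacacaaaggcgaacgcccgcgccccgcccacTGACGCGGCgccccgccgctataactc
Slc38a10: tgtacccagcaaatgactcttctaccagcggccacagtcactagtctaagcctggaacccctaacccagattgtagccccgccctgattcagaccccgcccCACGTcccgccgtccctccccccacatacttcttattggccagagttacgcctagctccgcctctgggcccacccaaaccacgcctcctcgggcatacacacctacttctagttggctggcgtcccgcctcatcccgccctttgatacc
*Slc1a1* matched none of the 3 patterns in this window. Besides *Slc7a11*, the C/EBP-ATF element stood in promoters of *Slc7a7*, at 10 to 12 counts, and of *Slc6a21*, at 1 count in 1 library. Sequence farther upstream or within the genes was not searched, so a gene without a match here may hold an element elsewhere. These are matches of letters, and no binding was measured.

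Of the transporters known as ATF4 targets, 2 of 9 were higher at the study's thresholds, *Slc38a2* and *Slc7a11*, and none was lower, and at the adjusted p *Slc38a2* alone passed. Over all genes tested, 4.37% were higher and 5.20% lower at the study's thresholds, which is the background for this list and those that follow. *Slc7a5*, also on this list, lay on the other side, with a 95% interval from -0.40 to -0.06. All 9 had passed the filter, at 0.083 to 163 FPKM. Their median log2 fold change was 0.004, with 5 above 0 and 4 below. *Slc7a1* was at 137 and 139 CPM in Scrambled and 125 and 135 CPM in Itgb6-siRNA, a log2 fold change of -0.09 ± 0.06 (SE; adjusted p = 0.494, edgeR). *Slc3a2* was at 260 and 269 CPM against 262 and 270 CPM, with a 95% interval of the log2 fold change from -0.11 to 0.11.

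The 95% intervals of the remaining 4 members of this list held 0. *Slc1a4* and *Slc1a5*, exchangers of alanine, serine and glutamine, had log2 fold changes of 0.01 ± 0.10 and -0.06 ± 0.12 (SE). *Slc6a9* was at -0.02 ± 0.08 (SE), and 28.5% of its 31-base words lie in other genes, mostly in *Ccdc24* on the other strand. *Slc7a3*, a carrier of basic amino acids, had 3 and 8 counts in Scrambled and 11 and 13 counts in Itgb6-siRNA. Its log2 fold change of 1.18 ± 0.70 (SE; adjusted p = 0.382, edgeR) was the farthest from 0 of any tested member and rested on the fewest counts.

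Among 14 genes of amino acid synthesis and the stress response, many of them also known ATF4 targets, none was higher and 1 was lower at the study's thresholds, and 2 were lower at the adjusted p. All 14 were tested, with a median log2 fold change of 0.04. *Cebpb*, which encodes a partner of ATF4, fell from 98.5 and 99.7 CPM in Scrambled to 73.1 and 60.6 CPM in Itgb6-siRNA (adjusted p = 3.24e-05, edgeR). *Ddit3*, a stress factor, fell by 0.25 on the log2 scale (adjusted p = 0.0271, edgeR), which is under the fold threshold. *Asns*, the asparagine synthetase, was at 489.7 and 498 CPM against 513 and 554 CPM, and *Atf4* itself at 1198 and 1275 CPM against 1295 and 1315 CPM, neither past a rule.

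Carriers of the plasma membrane that serve uptake and exchange in general had 10 of 15 members tested, with 2 higher and none lower at the study's thresholds, again *Slc38a2* and *Slc7a11*, and a median log2 fold change of 0.06. *Slc38a1*, the relative of *Slc38a2*, was at 89.9 and 87.3 CPM in Scrambled and 83.4 and 88.7 CPM in Itgb6-siRNA, and the 95% interval of its log2 fold change ran from -0.19 to 0.10. *Slc7a6* was at 28.0 and 23.3 CPM against 26.8 and 29.0 CPM. *Slc6a14*, a carrier of neutral and basic amino acids, had 18 to 28 counts.

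Of the 15 carriers of neurotransmitters, creatine and osmolytes, 4 were tested and *Slc6a6* alone passed a rule. *Slc6a8*, the creatine carrier, was at 29.0 and 30.98 CPM in Scrambled and 27.8 and 28.0 CPM in Itgb6-siRNA, a log2 fold change of -0.10 ± 0.11 (SE; adjusted p = 0.661, edgeR). *Slc6a13*, a carrier of GABA and taurine, had 17 and 25 counts against 16 and 12. The other 11 were at 0 or had at most 13 counts in a library.

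The carriers of the lysosome and other organelles had 4 of 5 members tested and none past a rule, with a median log2 fold change of 0.02. *Slc38a9*, the arginine sensor of the lysosome, had 143 and 144 counts in Scrambled and 145 and 131 in Itgb6-siRNA. *Slc36a1*, the proton-coupled exporter of small amino acids, had 135 and 150 counts against 148 and 128, and *Slc38a7*, a lysosomal glutamine carrier, 115 and 116 against 106 and 108. *Slc36a4* had 26 and 46 counts against 40 and 61, with overlapping groups. Among 15 members on no list of roles, 5 were tested, *Slc38a6*, *Slc38a10*, *Slc7a6os*, *Slc7a4* and *Slc6a17*, and of these *Slc38a10* alone passed a rule.

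Outside the 7 families, 14 other transporters of amino acids and peptides and their partners were read from the same fit. Of these 7 were tested, 2 were higher and 1 was lower at the study's thresholds, and *Slc15a2* alone passed the adjusted p. *Slc15a2*, the high-affinity peptide carrier of the apical membrane, rose from 4.599 and 4.23 CPM in Scrambled to 7.24 and 7.77 CPM in Itgb6-siRNA, a log2 fold change of 0.77 ± 0.21 (SE; adjusted p = 0.0316, edgeR). *Ctns*, the lysosomal cystine exporter, was at 14.7 CPM in both Scrambled libraries and at 19.2 and 16.6 CPM in Itgb6-siRNA, and *Mfsd12*, a cysteine carrier of lysosomes and melanosomes, at 12.7 and 12.4 CPM against 10.7 and 9.23 CPM. *Slc16a10*, the basolateral exit for aromatic amino acids, had a log2 fold change of -0.43 ± 0.23 (SE; adjusted p = 0.317, edgeR). Of 26 genes of amino acid sensing, 25 were tested and 3 were lower at the study's thresholds, *Rptor*, *Castor1* and *Eif2ak4*, beside 5.20% of all genes, none of them at the adjusted p, and the median was -0.08.

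**Figure D5:**
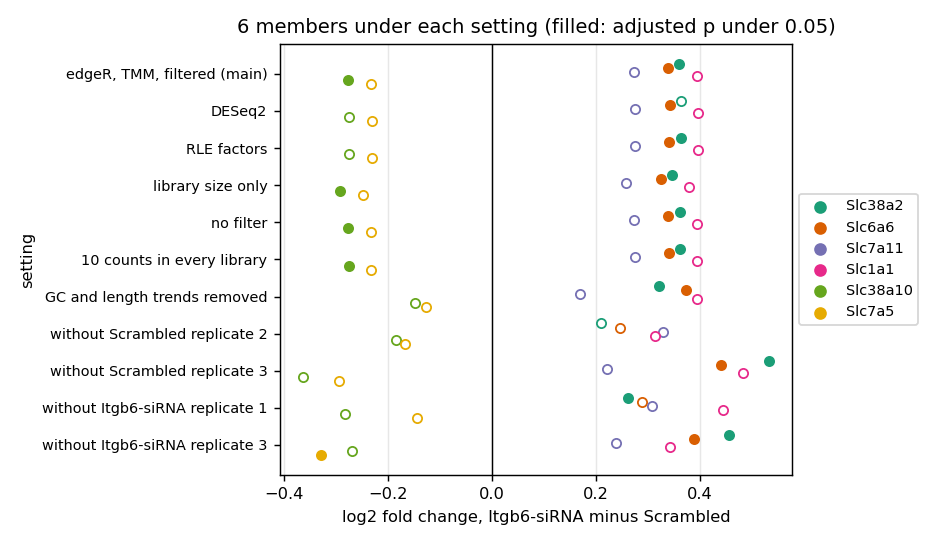
Log2 fold change of Itgb6-siRNA against Scrambled (x axis) for 6 members under each setting (y axis), filled where the adjusted p was under 0.05. The sign of each of the 6 was the same under all settings shown, and the fold changes of *Slc38a2* ran from 0.21 to 0.53.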

How the data were processed

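RNA of hypoxic TKPT cells was sequenced from 4 libraries, 2 per group, as polyadenylated RNA in pairs without strand information. The authors deposited estimated counts per gene, not normalized, and FPKM values, the FPKM scaled by them to transcript length and library size. The aligner, counter and build are not given in the sources used here. Counts per sample are repeated in single files, which were not used.

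Estimated counts were rounded, filtered with filterByExpr (minimum count 10, minimum total 15; 11727 of 22063 genes kept), normalized by TMM and tested across all genes in edgeR 4.0.16 (R 4.3.3; glmQLFit and glmQLFTest, the quasi-likelihood test), with Benjamini-Hochberg adjustment. CPM are on TMM-scaled totals, and all 95% intervals cover the spread the model estimates. The totals were 15435074 to 17220281 counts, and the biological coefficient of variation came to 0.0551. Permuting the labels of 2 against 2 libraries cannot give a p under 0.05. FPKM entered no test. The fit was first tested on simulated data.

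Members and lists were chosen with earlier results of these data known. Named were *Itgb6*, members past a rule, the 10 with the highest mean FPKM, and the apical, basolateral and ATF4-linked lists; other genes were named from their lists. Marker lists were those of the proximal tubule, epithelium (1 of 7 called, lower), injured tubule (5 of 5 tested, *Havcr1* higher and *Lcn2* lower by the adjusted p), loop of Henle to collecting duct (0 of 7 tested), fibroblast (1 of 5 tested), endothelium (1 of 4) and leukocyte (2 of 5, *Cd68* and *Csf1r*), the last 3 with none called. Coordinates, overlaps and shared 31-base words came from GENCODE vM21 (GRCm38), which may not be the authors' annotation, and promoters from RefSeq. Alternatives were DESeq2 1.42.0, RLE factors, library size only, other filters, a fold change over 1.5, removal of GC and length trends, and leaving out each library. Some items of the lists are not reported here.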

Additional observations from a re-analysis of the deposited data

How the results depend on the processing

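No paired analysis was possible because the groups share only replicate number 3. With 2 libraries per group, leaving one out leaves a lone library that is assumed to vary like the other group. Higher members at the study's thresholds numbered 4, lower ones 1, and at the adjusted p 2 and 1. A fold change over 1.5 left 0 higher and 0 lower. DESeq2 gave 1 higher and 0 lower at the adjusted p, with an adjusted p for only 13 of the 31 members, and RLE factors gave 0 lower. With GC and length trends removed, 0 were lower under either rule, and the median log2 fold change was 0.068. Leaving out each library gave 1 to 4 higher and 0 to 2 lower at the study's thresholds, 0 to 2 higher and 0 to 1 lower at the adjusted p, and medians from 0.0053 to 0.0875. The lowest counts of higher members came without Scrambled replicate 2, which left 1 at the study's thresholds and 0 at the adjusted p.

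Over the 31 members, 249 of 290 alternative values with an adjusted p kept their sign and side of its threshold, 11 lost the call, 2 gained it and 28, in 15 members, changed sign. A further 18, all from DESeq2, had no adjusted p and kept their sign. The cause of these changes was not tested. Only *Slc38a2*, *Slc6a6* and *Slc38a10* were called at the adjusted p, so all 11 losses fell on them, at 10 alternatives each. The other members had no call to lose, and most of the 249 come from them, so that count does not measure how stable the calls are. With GC and length trends removed, the sign changed for *Slc1a5* (0.033), *Slc38a7* (0.048), *Slc38a9* (-0.038), *Slc6a8* (0.014) and *Slc6a9* (0.096), and with library size only for *Slc1a4* (-0.0087), *Slc3a2* (-0.0103) and *Slc7a7* (-0.0073). Leaving out each library, the log2 fold change ran from -0.078 to 0.0875 for *Slc1a4*, -0.16 to 0.031 for *Slc1a5*, -0.13 to 0.17 for *Slc36a1*, -0.084 to 0.00072 for *Slc38a1*, -0.10 to 0.13 for *Slc38a9*, -0.021 to 0.033 for *Slc3a2*, -0.63 to 0.16 for *Slc43a2*, -0.16 to 0.44 for *Slc6a19*, -0.048 to 0.016 for *Slc6a9*, -0.51 to 0.10 for *Slc7a4*, -0.0014 to 0.26 for *Slc7a6*, -0.23 to 0.043 for *Slc7a6os* and -0.11 to 0.12 for *Slc7a7*. The 2 calls gained were *Slc38a6* without Itgb6-siRNA replicate 1 (adjusted p = 0.0205) and *Slc7a5* without Itgb6-siRNA replicate 3. A filter of 10 counts in every library kept 29 members and a mean of 1 FPKM kept 22. Depth limits the members with few counts, where standard errors reached 0.70, against 0.04 for the most abundant.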
